A study of Homo sapiens with 4 samples.

Results

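The 9 genes described here encode enzymes that make, salvage or destroy deoxynucleotides, the building blocks of DNA: RRM1, RRM2, TYMS, DTYMK, DUT, TK1, TK2, DCK and SAMHD1. They were taken by symbol from a deposited table of 64252 genes, each matched a single row, and all 9 had enough counts to be tested. The RNA came from SK-N-BE(2) cells, a long-established line derived from a human neuroblastoma, with amplified MYCN. In 2 libraries (shIGF2BP3) the cells carried a short hairpin RNA against IGF2BP3, an RNA-binding protein that reads the m6A mark on mRNA, and in the other 2 (shControl) they carried a control hairpin. The study asked whether IGF2BP3 stabilises the m6A-marked mRNA of E2F2, a transcription factor that drives genes of the G1/S transition. The sources used here do not state how many hairpin sequences were used, how long the knockdown lasted or whether replicates were separate cultures. Each p-value therefore reflects the spread among these 4 libraries alone, and that spread could be technical.

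Deoxynucleotides come from 2 routes. In the de novo route, ribonucleotide reductase (a large subunit, RRM1, with a small subunit, RRM2 or RRM2B) reduces ribonucleotides, and thymidylate synthase (TYMS) then methylates dUMP to dTMP. In the salvage route, kinases phosphorylate deoxynucleosides taken up by the cell: TK1 and DCK in the cytosol and nucleus, TK2 and DGUOK in mitochondria. Several of these enzymes are known to be made mainly in S phase of dividing cells, whereas TK2, DGUOK and RRM2B also serve cells that do not divide.

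The shIGF2BP3 libraries held 27537200 and 26755695 counts in total, and the shControl libraries 27977019 and 31946756. Levels are given as CPM, in which each library's counts are scaled by its total and its TMM factor. The hairpin's target, IGF2BP3, stood at 28.7 and 31.9 CPM in shIGF2BP3, against 156.5 and 138.9 CPM in shControl. It fell by 2.28 on the log2 scale. MALSU1, on the opposite strand, shares 1521 exon bases with IGF2BP3 and had 732 and 658 counts in shIGF2BP3, against 735 and 845 in shControl. Without a stated strand setting, reads from the shared bases cannot be assigned to either gene. All 12 markers of the neuroblastoma lineage were detected in every library, of which 9 fell and 2 rose. By the same test, described below, 25.6% of all tested genes fell and 25.9% rose. The call missed PHOX2A (680.6 to 750.1 CPM in shIGF2BP3 and 785.8 to 798.2 CPM in shControl). Among the 9, ISL1 (log2 -0.27) lost its call without shControl replicate 1 (-0.18). MYCN (log2 -0.22) lost its call without shIGF2BP3 replicate 2 (-0.18). The 8 leukocyte markers summed to 5.03 to 6.07 CPM in shIGF2BP3 and 2.17 to 3.42 CPM in shControl, with CD3E and LYZ at 0 counts in all libraries. Of these, CD68 rose (2.75 and 2.62 CPM in shIGF2BP3, 0.297 and 0.224 CPM in shControl), and PTPRC fell (0 and 0.0729 CPM, against 0.743 and 0.543 CPM in shControl), a call lost without shIGF2BP3 replicate 1. The 6 epithelial markers summed to 6.82 to 8.58 CPM in shIGF2BP3 and 11.4 to 14.9 CPM in shControl, and 2 fell, KRT8 and CLDN4, both calls lost without shIGF2BP3 replicate 2 or shControl replicate 1 and that of KRT8 also without shIGF2BP3 replicate 1. The 6 Schwann cell markers summed to 9.53 to 9.59 CPM in shIGF2BP3 and 5.81 to 5.98 CPM in shControl, with SOX10 at 0 counts. The 9 fibroblast markers, several of which neuroblastoma cells also express, summed to 1037 to 1053 CPM in shIGF2BP3 and 830.7 to 864.7 CPM in shControl, with FAP at 0 counts. Of these, 4 rose, COL1A1 by 1.77, COL3A1 by 1.62, DCN by 0.32 and THY1 by 0.22 on the log2 scale, and LUM fell by 1.09. The part of these markers in the results was not tested.

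After knockdown 7 of the 9 enzyme mRNAs fell, 0 rose and 2, TK2 and DCK, did not pass edgeR's quasi-likelihood test at an adjusted p of 0.05. Across all 19767 tested genes 25.6% fell and 25.9% rose by the same rule, so a change in either direction (51.5%) was common in these libraries. The median log2 fold change was -1.25 over the 9 enzymes and 0.01 over all tested genes. Of the 9, 5 (TK1, TYMS, DUT, RRM1 and DTYMK) were at least 2-fold lower, as were 9.16% of tested genes. The shIGF2BP3 libraries lay below the shControl libraries for each of the 9, without overlap. Groups without overlap, in either direction, were seen in 74.5% of tested genes. In bulk RNA, fewer cells in S phase and less of an mRNA per cell cannot be told apart.

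**Figure D1:**
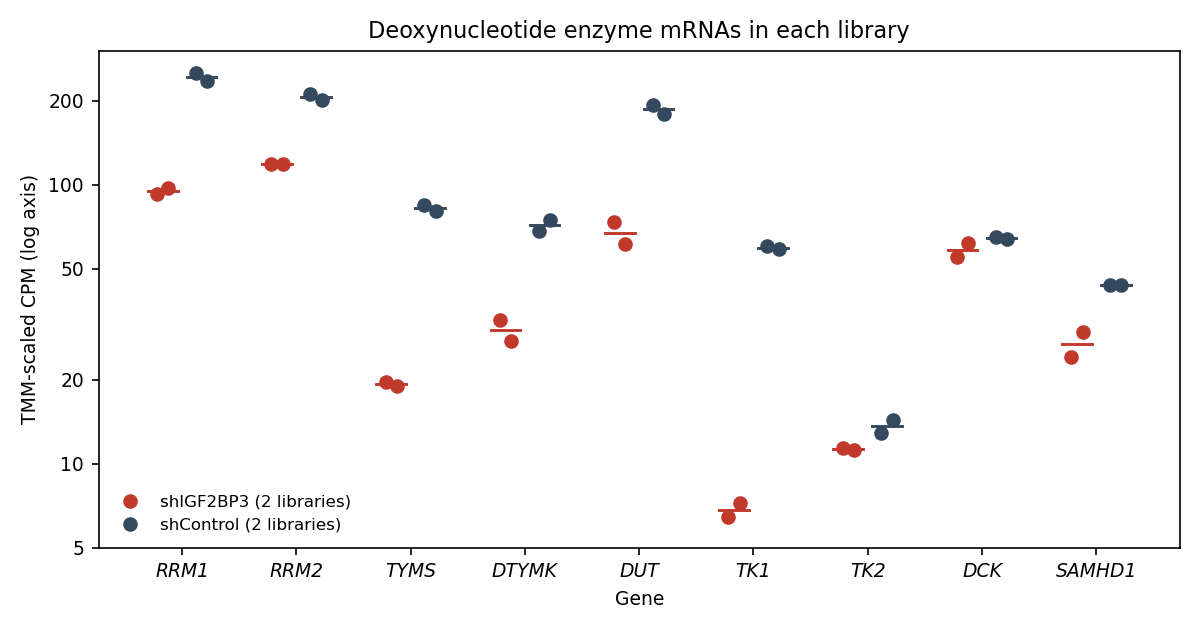
TMM-scaled CPM (log axis) of each enzyme mRNA in the 2 shIGF2BP3 libraries (red) and the 2 shControl libraries (dark), with points for libraries and bars for group means. The groups stand far apart for TK1 (6.84 against 59.6 CPM) and close together for TK2 and DCK.

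Ribonucleotide reductase fell in both S-phase subunits, and by different amounts. RRM1 (ENSG00000167325, chromosome 11, 4094707 to 4138876, plus strand) had 92.8 and 97.6 CPM in shIGF2BP3, against 252.0 and 236.7 CPM in shControl. This was a log2 fold change of -1.36 (SE 0.07, adjusted p = 3.76e-11, edgeR), or 2.57-fold lower. RRM2 (ENSG00000171848, chromosome 2, 10120698 to 10131419, plus strand), the subunit that holds the radical needed for catalysis, had 118.9 and 118.8 CPM in shIGF2BP3, against 212.0 and 201.1 CPM in shControl. It fell by 0.80 on the log2 scale (SE 0.07, adjusted p = 2.55e-08, edgeR), or 1.74-fold. Within a library, RRM2 stood above RRM1 in shIGF2BP3 (log2 ratio of CPM 0.36 and 0.28) and below it in shControl (-0.25 and -0.23), a difference of 0.56. With 2 libraries a group, an exact two-sided permutation test of such a ratio cannot give a p below 0.333, which is the value it gave here.

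The alternative small subunit moved the other way. RRM2B, the subunit that supplies deoxynucleotides for repair and for mitochondrial DNA in resting cells, had 47.1 and 51.7 CPM in shIGF2BP3, against 33.2 and 29.04 CPM in shControl. It rose by 0.67 on the log2 scale (SE 0.10, adjusted p = 3.14e-05, edgeR). Per kilobase of annotated exon, RRM2B made up 27.5% and 29.5% of the summed small-subunit mRNA in shIGF2BP3, against 13.1% and 12.2% in shControl. The log2 ratio of RRM2 to RRM2B was 1.34 and 1.20 in shIGF2BP3 and 2.67 and 2.79 in shControl (exact permutation p = 0.333, the smallest possible).

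The 3 enzymes of the 9 that lead to dTTP or remove dUTP, TYMS, DTYMK and DUT, fell. TYMS (ENSG00000176890, chromosome 18, 657604 to 673578, plus strand) had 19.7 and 19.0 CPM in shIGF2BP3, against 84.8 and 80.3 CPM in shControl. That is a log2 fold change of -2.09 (SE 0.10, adjusted p = 9.23e-12, edgeR), or 4.27-fold lower. DTYMK (ENSG00000168393, chromosome 2, 241675742 to 241686991, minus strand), which phosphorylates dTMP to dTDP after either route, had 32.7 and 27.5 CPM in shIGF2BP3, against 68.4 and 74.8 CPM in shControl. It fell by 1.25 on the log2 scale (SE 0.10, adjusted p = 1.20e-08, edgeR). DUT (ENSG00000128951, chromosome 15, 48331011 to 48343373, plus strand), the dUTPase that keeps uracil out of DNA and yields the dUMP used by TYMS, had 73.5 and 61.5 CPM in shIGF2BP3, against 193.4 and 179.5 CPM in shControl. It fell by 1.46 on the log2 scale (SE 0.09, adjusted p = 2.18e-10, edgeR), or 2.76-fold. DCTD, the dCMP deaminase that also supplies dUMP to TYMS, rose by 0.42 on the log2 scale (SE 0.09, adjusted p = 0.000803, edgeR), to 64.0 and 58.0 CPM in shIGF2BP3, against 45.4 and 45.9 CPM in shControl.

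TYMS and its neighbour ENOSF1 moved in opposite directions. ENOSF1, a gene on the minus strand, covers 967 of the 2470 annotated exon bases of TYMS, and it rose to 38.9 and 39.8 CPM in shIGF2BP3, against 21.1 and 18.3 CPM in shControl (log2 1.00, SE 0.11, adjusted p = 8.15e-07, edgeR). TYMSOS, a non-coding RNA on the minus strand that shares 183 exon bases with TYMS, had 2 and 0 counts in shIGF2BP3 and 26 and 35 counts in shControl (adjusted p = 0.000471, edgeR). Without a stated strand setting, reads from the shared bases cannot be assigned to TYMS or to ENOSF1. DCK likewise shares 199 exon bases on the same strand with MOB1B, which rose by 0.73 on the log2 scale, to 172.4 and 196.0 CPM in shIGF2BP3, against 111.4 and 110.4 CPM in shControl. DUT shares 533 exon bases with DUT-AS1 (64 and 93 counts in shIGF2BP3, 109 and 101 in shControl) and SAMHD1 shares 1159 with TLDC2 (5 and 4 counts, against 17 and 16 in shControl), both on the opposite strand. RRM2 shares 1077 exon bases with AC007240.1 on its own strand, which was not analysed here. Processed pseudogenes carried few reads: the highest count of any DUT, RRM2 or TYMS pseudogene in a library was 17, for RRM2P2 in the second shControl library.

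Salvage kinases divided into TK1 and the rest. TK1 (ENSG00000167900, chromosome 17, 78174075 to 78187233, minus strand), the thymidine kinase of dividing cells, had 182 and 199 counts, or 6.42 and 7.25 CPM, in shIGF2BP3. In shControl it had 1624 and 1843 counts, or 60.3 and 58.9 CPM. Its log2 fold change of -3.12 (SE 0.13, adjusted p = 1.70e-12, edgeR), or 8.71-fold lower, was the lowest of the 9, and 105 of 19767 tested genes had a lower one. TK2 (ENSG00000166548, chromosome 16, 66508003 to 66552544, minus strand), the mitochondrial thymidine kinase, had 11.4 and 11.2 CPM in shIGF2BP3, against 12.8 and 14.4 CPM in shControl. DCK (ENSG00000156136, chromosome 4, 70992538 to 71030914, plus strand), which phosphorylates deoxycytidine and activates cytarabine and gemcitabine, had 55.1 and 62.1 CPM in shIGF2BP3, against 65.1 and 64.1 CPM in shControl. The 2 log2 fold changes were -0.27 (95% interval -0.60 to 0.06, adjusted p = 0.158, edgeR) for TK2 and -0.14 (95% interval -0.33 to 0.04, adjusted p = 0.195, edgeR) for DCK. These intervals end well short of the fall in TK1, and a missing call does not show that either was unchanged. DGUOK, the mitochondrial kinase of deoxyguanosine, fell by 0.47 on the log2 scale, to 42.5 and 41.5 CPM in shIGF2BP3, against 60.3 and 56.5 CPM in shControl.

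**Figure D2:**
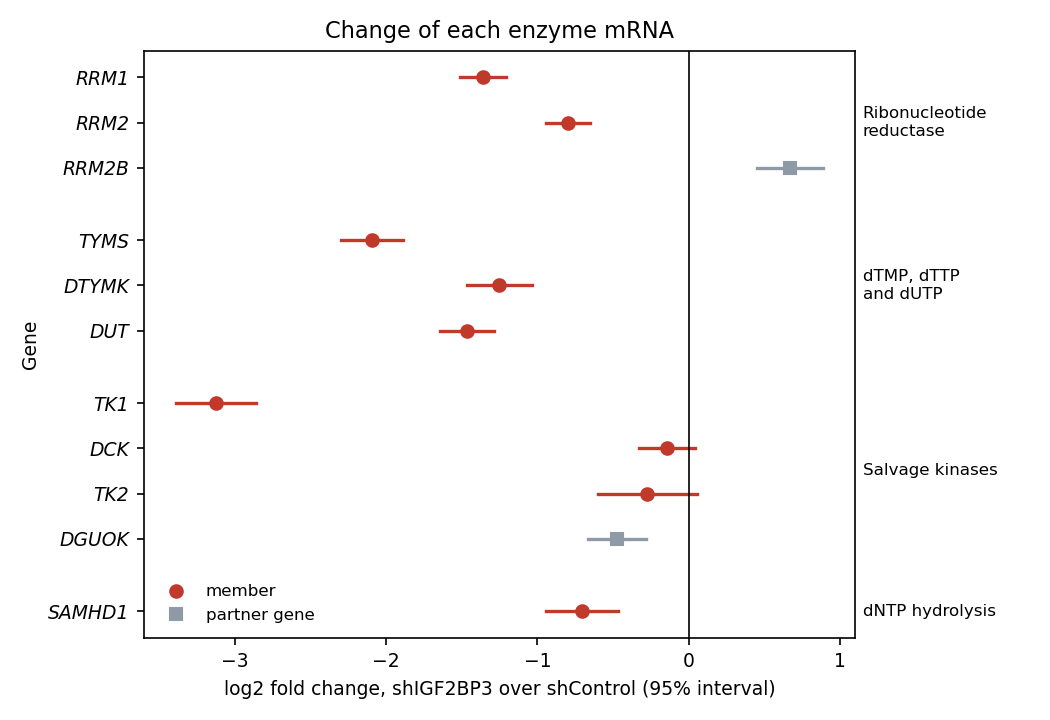
Log2 fold change of shIGF2BP3 over shControl, with 95% intervals from edgeR's quasi-likelihood fit, for the 9 enzymes (circles) and 2 partner genes (squares). The intervals of TK2 and DCK cross 0, RRM2B lies to the right of 0, and TK1 lies farthest to the left.

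The balance between the thymidine kinases differed between groups. The log2 ratio of TK1 to TK2 was -0.83 and -0.62 in shIGF2BP3 and 2.22 and 2.03 in shControl. Per kilobase of exon, TK2 was 31.6% and 28.6% of the summed TK1 and TK2 mRNA in shIGF2BP3, against 5.24% and 5.97% in shControl. TK1 was also lower beside TYMS, which makes the same product by the de novo route: their log2 ratio was -1.60 and -1.38 in shIGF2BP3 and -0.49 and -0.45 in shControl. DCK stood 3.09 above TK1 on the log2 scale in each shIGF2BP3 library and 0.11 and 0.12 above it in shControl. Each of these ratios had groups without overlap and an exact permutation p of 0.333, the smallest the design allows.

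SAMHD1 (ENSG00000101347, chromosome 20, 36889773 to 36951901, minus strand), which hydrolyses dNTPs and restricts retroviruses in resting cells, fell together with the synthesis enzymes. It had 24.1 and 29.7 CPM in shIGF2BP3, against 43.9 and 43.8 CPM in shControl (log2 -0.71, SE 0.11, adjusted p = 3.85e-05, edgeR). The log2 ratio of SAMHD1 to RRM2 overlapped between groups, at -2.30 and -2.00 in shIGF2BP3 and -2.27 and -2.20 in shControl (exact permutation p = 1, difference 0.09).

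The order of mRNA levels differed between groups. Compared per kilobase of annotated exon, RRM1 stood highest in both groups, at 22.8 ± 0.80 CPM per kilobase in shIGF2BP3 and 58.5 ± 2.59 in shControl (SD, n = 2 each), and TK2 lowest, at 1.58 ± 0.02 and 1.90 ± 0.15. In shIGF2BP3 the order was RRM1, RRM2, DUT, DCK, DTYMK, TYMS, TK1, SAMHD1 and TK2, where the libraries of RRM1 overlapped those of RRM2 and those of DUT overlapped those of DCK. In shControl it was RRM1, DUT, RRM2, TYMS, TK1, DTYMK, DCK, SAMHD1 and TK2, with no overlap between neighbours. DCK thus stood at rank 4 in shIGF2BP3 and at rank 7 in shControl, and TK1 at rank 7 and rank 5. Annotated exon length counts rare isoforms too, so these levels per kilobase are approximate.

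Promoter windows are shown for RRM2, DTYMK, RRM1 and TYMS, which fell, and, for comparison, DCK, which did not pass the test. Each window shown holds a match to a motif named below. Those of TK1, DUT and SAMHD1, which also fell, are not printed. The windows are RefSeq's on GRCh38.p14, run from 250 bases before to 50 bases after a start site, and were found for all 9 enzymes. Where a gene had several, the window nearest to the start of the principal GENCODE transcript was used. The only windows of TK2 and RRM1 do not contain that start. Their own start sites lie 290 bases from it for TK2 and 124 bases from it for RRM1. The windows of DCK, SAMHD1 and DTYMK do contain it, but upstream of their own start sites, by 210, 193 and 176 bases. Much of each of these windows thus lies downstream of the principal start, including the marked E2F-type match of DCK. Capitals mark matches on either strand to 3 motifs tied to cell-cycle promoters: an E2F-type site (TTTNNCGC), the CCAAT box (CCAAT) and the cell-cycle homology region, or CHR (TTTGAA).
RRM2, chr2:10122489-10122788, plus strand: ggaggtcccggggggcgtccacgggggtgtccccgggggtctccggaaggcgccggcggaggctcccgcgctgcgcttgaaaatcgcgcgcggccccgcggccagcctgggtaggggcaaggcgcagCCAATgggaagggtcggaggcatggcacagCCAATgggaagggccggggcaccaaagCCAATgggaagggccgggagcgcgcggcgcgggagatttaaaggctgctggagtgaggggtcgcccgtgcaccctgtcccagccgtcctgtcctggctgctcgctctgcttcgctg
DTYMK, chr2:241686766-241687065, minus strand: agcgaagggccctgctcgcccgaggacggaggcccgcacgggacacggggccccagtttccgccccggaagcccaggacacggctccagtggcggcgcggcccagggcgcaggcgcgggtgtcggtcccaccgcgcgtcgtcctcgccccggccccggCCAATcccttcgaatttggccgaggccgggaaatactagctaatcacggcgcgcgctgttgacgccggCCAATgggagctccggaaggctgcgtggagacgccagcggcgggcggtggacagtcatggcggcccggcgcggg
RRM1, chr11:4094435-4094734, plus strand: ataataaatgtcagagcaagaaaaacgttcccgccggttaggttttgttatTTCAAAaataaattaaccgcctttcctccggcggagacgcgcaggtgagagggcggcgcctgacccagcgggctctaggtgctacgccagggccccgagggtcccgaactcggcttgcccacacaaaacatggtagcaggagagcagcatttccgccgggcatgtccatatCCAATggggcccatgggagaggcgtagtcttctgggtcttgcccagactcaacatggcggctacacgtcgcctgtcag
TYMS, chr18:657403-657702, plus strand: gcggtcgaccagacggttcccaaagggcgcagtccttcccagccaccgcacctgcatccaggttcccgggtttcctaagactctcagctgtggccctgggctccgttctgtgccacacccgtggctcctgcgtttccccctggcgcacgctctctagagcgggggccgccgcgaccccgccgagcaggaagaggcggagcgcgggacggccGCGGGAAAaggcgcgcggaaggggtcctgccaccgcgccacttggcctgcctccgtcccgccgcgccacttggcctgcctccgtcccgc
DCK, chr4:70993399-70993698, plus strand: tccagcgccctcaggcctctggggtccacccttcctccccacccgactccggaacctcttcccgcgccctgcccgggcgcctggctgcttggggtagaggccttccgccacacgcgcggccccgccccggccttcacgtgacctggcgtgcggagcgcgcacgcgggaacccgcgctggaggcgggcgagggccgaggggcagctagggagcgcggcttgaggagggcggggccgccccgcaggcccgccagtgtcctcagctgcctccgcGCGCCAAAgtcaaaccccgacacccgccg
The RRM2 window held 3 CCAAT boxes and that of DTYMK held 2, while RRM1 had 1 CCAAT box and 1 CHR match. TYMS had an E2F-type match in the reverse orientation, and so did DCK, whose mRNA did not pass the test. Of the other enzymes, the SAMHD1 window held 2 CCAAT boxes and those of TK1, TK2 and DUT held no match to these 3 motifs. Among all 35116 windows, 6.89% held an E2F-type match, 34.6% a CCAAT box and 15.2% a CHR match, against 2, 4 and 1 of the 9 enzymes. A match is a description of letters and not a measured site, and no match says only that these letters are not in this window.

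Factors that act on such promoters fell in part. Of 24 promoter factors 13 fell, 2 rose and 9 missed the threshold, and the median log2 fold change was -0.43. Among all tested genes 25.6% fell and 25.9% rose. MYBL2 fell by 1.94, FOXM1 by 1.88, E2F2 by 1.69 and E2F1 by 1.45 on the log2 scale. E2F8 (log2 -1.51), E2F7 (-1.30), RBL2 (-1.26) and RBL1 (-0.88) were also among those that fell. TFDP1 (log2 -0.24), another of the 13, lost its call without shIGF2BP3 replicate 1 (-0.18) and under scaling by library size alone (-0.16). LIN52, a subunit of the MuvB complex, rose by 0.58 and NFYC, a subunit of the CCAAT-binding factor NF-Y, by 0.34, while another NF-Y subunit, NFYB, fell by 0.98. In a list of 12 genes for protein turnover and damage control 8 fell, 2 rose and 2 missed the threshold, and the median was -1.35. CCNF, which targets RRM2 protein for degradation, fell by 2.10 and FZR1, which activates the ligase that degrades TK1 protein, fell by 1.35 on the log2 scale. MDM2 (log2 0.44) and ATR were the 2 that rose, and the call of ATR (log2 0.19) ended without shIGF2BP3 replicate 1, without shIGF2BP3 replicate 2 and without shControl replicate 2.

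Replication fork genes moved with the enzymes and gave a scale for them. All 30 of these genes (the MCM helicase, PCNA, polymerases and their partners) fell, against 25.6% of all tested genes. The median log2 fold change of the 30 was -1.52, and FEN1 fell by 2.33, PCNA by 1.85, MCM2 by 1.70 and MCM7 by 1.55. The calls of 3 others ended with a library left out: GINS3 (log2 -0.50) without shIGF2BP3 replicate 1 (-0.21), POLE2 (-0.40) without shIGF2BP3 replicate 1 (-0.27) or shControl replicate 1 (-0.21), and RPA2 (-0.27) without shIGF2BP3 replicate 2 (-0.20) or shControl replicate 1 (-0.23). The summed level of the 30 was 1200 and 1173 CPM in shIGF2BP3, against 3021 and 2935 CPM in shControl. RRM1 stood close to the same distance from the mean of these genes in both groups, at 1.73 ± 0.08 above it in shIGF2BP3 and 1.73 ± 0.02 in shControl on the log2 scale (SD, n = 2 each). DUT (1.23 ± 0.15 and 1.34 ± 0.04) and DTYMK (0.07 ± 0.14 and -0.04 ± 0.13) also had overlapping libraries. TK1 stood 2.06 ± 0.16 below that mean in shIGF2BP3 and 0.30 ± 0.02 below it in shControl, a difference of -1.75, and TYMS differed by -0.73. RRM2 differed by 0.56, SAMHD1 by 0.65, TK2 by 1.09 and DCK by 1.22, so these mRNAs were higher beside the fork genes after knockdown. For the 6 enzymes whose libraries did not overlap, the exact permutation p was 0.333, the smallest possible.

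**Figure D3:**
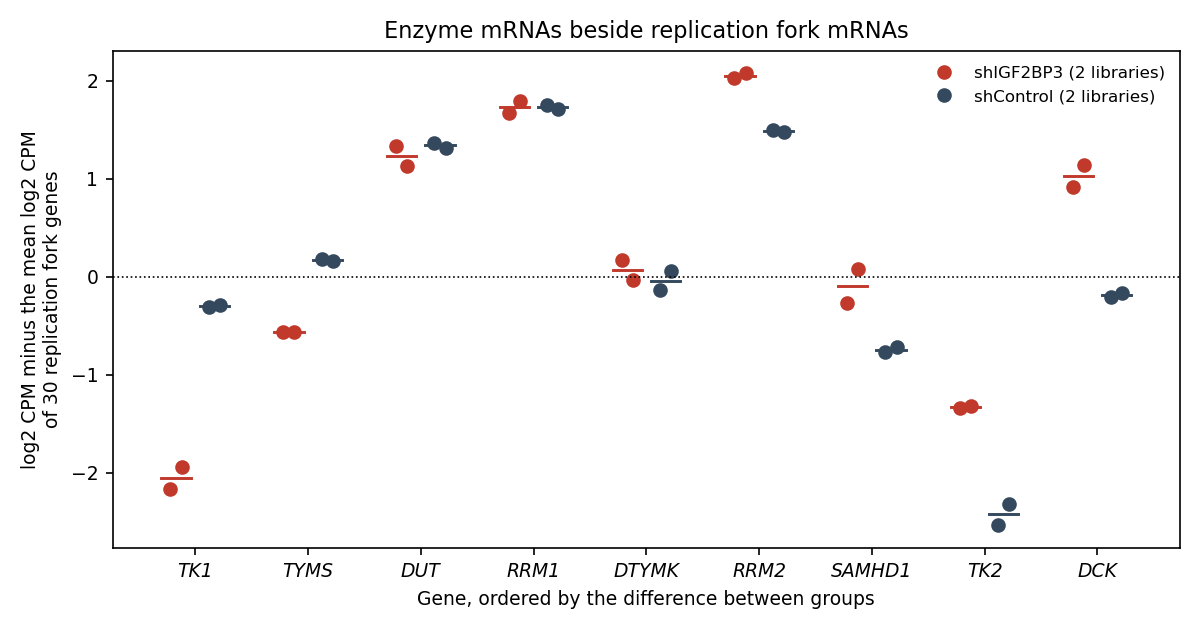
Log2 CPM of each enzyme mRNA minus the mean log2 CPM of 30 replication fork genes, by library, with shIGF2BP3 in red, shControl in dark and bars for group means. The groups overlap for DUT, RRM1 and DTYMK, shIGF2BP3 lies lower for TK1 and TYMS, and it lies higher for RRM2, SAMHD1, TK2 and DCK.

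Other genes of deoxynucleotide synthesis moved in both directions. Of 20 such genes 9 rose, 6 fell and 5 missed the threshold, and the median log2 fold change was 0.18. The share of lower genes was near the 25.6% of all tested genes, of which 25.9% rose. Among the 9, AK3 (log2 0.24), NME6 (log2 0.52) and GLRX (log2 0.40) each lost the call with at least 1 library left out. NME1, a nucleoside diphosphate kinase, fell by 0.93 on the log2 scale, and TXN and TXNRD1, which pass electrons to ribonucleotide reductase, fell by 0.65 and 0.50. CMPK1, which phosphorylates CMP, UMP and dCMP, rose by 0.52 on the log2 scale. NME1 and NME2 are close paralogs whose reads could have been split either way, and NME2 rose by 0.26, a call lost without shControl replicate 1. The thymidylate and folate list had 7 of 13 lower, 2 higher and 4 not past the test, with a median of -0.25. GGH, which trims folate polyglutamates, fell by 1.24 and MTHFD1 by 1.13 on the log2 scale, while the mitochondrial enzyme ALDH1L2 rose by 0.80. The other that rose, the folate transporter SLC46A1 (log2 0.61), lost its call without shIGF2BP3 replicate 1 and without shControl replicate 2.

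Genes that break down deoxynucleotides and nucleosides were lower in 12 of 19, higher in 1 and not past the test in 6, with a median log2 fold change of -0.35. By the same rule 25.6% of all tested genes fell and 25.9% rose. NUDT1, which clears oxidised dNTPs, fell by 1.83 on the log2 scale, to 5.58 and 6.56 CPM in shIGF2BP3, against 21.8 and 21.4 CPM in shControl. PNP, the purine nucleoside phosphorylase, fell by 0.77, and the nucleotidases NT5C and NT5E fell by 0.63 and 0.59. Among the 12, DCTPP1 (log2 -0.26), DNPH1 (-0.52), HDDC3 (-0.81) and DPYD (-0.32) each lost the call with at least 1 library left out. The 1 that rose, NUDT18 (log2 0.61), lost its call without shIGF2BP3 replicate 2, without shControl replicate 1 and without shControl replicate 2. Of 6 tested nucleoside transporters 5 fell and 1 rose. The call of SLC25A36 (log2 -0.17, adjusted p = 0.0459, edgeR), a mitochondrial nucleotide carrier among the 5, ended without any 1 of the 4 libraries and under scaling by library size alone or by the upper quartile. The plasma membrane transporters SLC29A1, SLC29A2 and SLC29A4 fell by 0.56, 0.84 and 1.36, and the lysosomal transporter SLC29A3 rose by 1.16 on the log2 scale. SLC28A1 and SLC28A3 had too few counts to test.

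Ribonucleotides, the substrates of the reductase, come from the purine and pyrimidine pathways. Of 15 purine genes 9 fell, 2 rose and 4 did not pass (median log2 fold change -0.29), with APRT at -1.25, IMPDH1 at -1.11, ADSL at -0.88 and PAICS at -0.73. PPAT (log2 -0.20), also among the 9, lost its call with at least 1 library left out. PRPS2 and ADSS1 were the 2 that rose, by 0.47 and 1.01. Of 9 pyrimidine genes 3 fell, 1 rose and 5 did not pass (median -0.24), a share of lower genes near the 25.6% of all tested genes, with UCK2 at -0.86, CTPS2 at -0.72 and UMPS at -0.53. CAD, the enzyme that starts pyrimidine synthesis, rose by 0.25 on the log2 scale and lost its call without shControl replicate 1. In the mitochondrial DNA list 11 of 19 fell, 3 rose and 5 did not pass (median -0.26), with MGME1 at -1.36, TOP3A at -0.87 and TFAM at -0.62. Among the 11, POLG (-0.26), TWNK (-0.31), SUCLA2 (-0.26), SLC25A4 (-0.35) and LIG3 (-0.29) each lost the call with at least 1 library left out. OPA1 (log2 0.30) and SUCLG2 (log2 0.27) rose a little, and SUCLG2 lost its call without either shIGF2BP3 replicate and without shControl replicate 2. ABAT, whose enzyme breaks down GABA and also takes part in mitochondrial nucleotide salvage, rose by 1.83, to 111.6 and 119.7 CPM in shIGF2BP3, against 30.9 and 34.0 CPM in shControl.

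**Figure D4:**
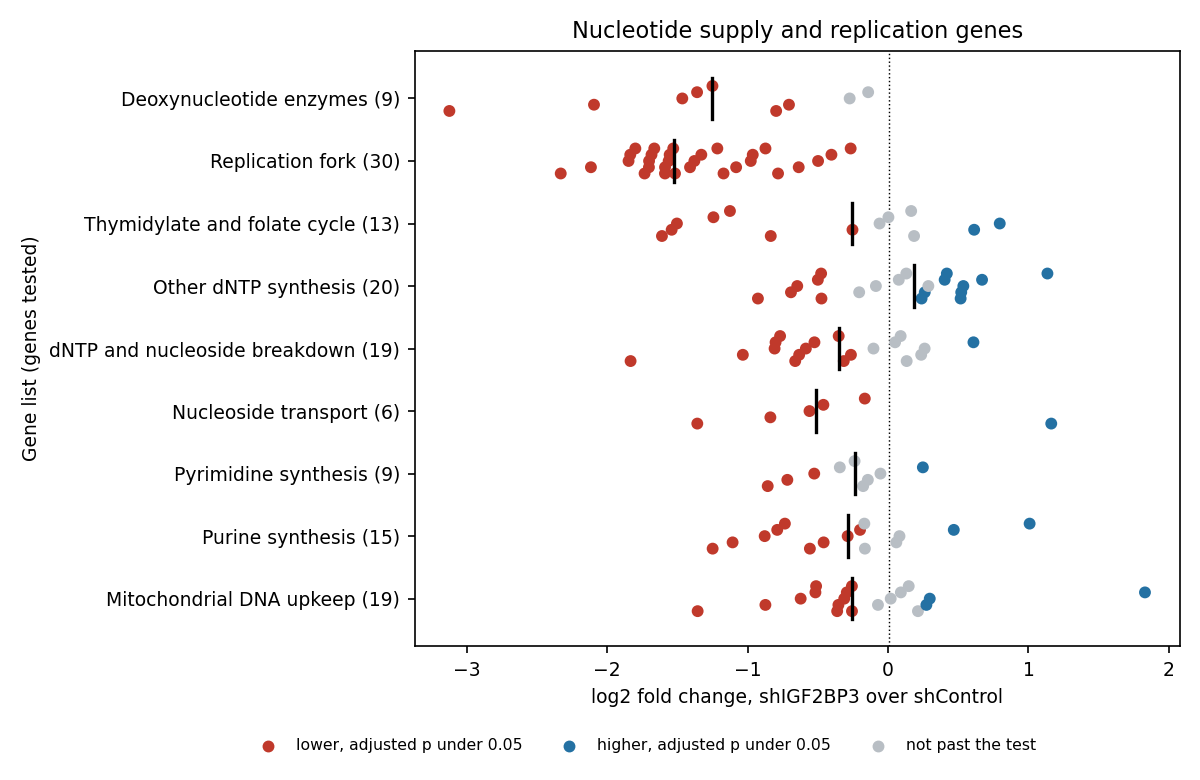
Log2 fold change of shIGF2BP3 over shControl for each tested gene of 9 lists, coloured by the call, with a bar at the list median and a dotted line at the median of all tested genes (0.01). The replication fork list lies wholly to the left of 0, the 9 enzymes do too with TK2 and DCK not past the test, and the list of other dNTP synthesis genes lies on both sides.

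Genes with the profile most like that of an enzyme were sought among 10432 protein-coding genes, by the Euclidean distance between log2 CPM over the 4 libraries after centring. For TK1 the nearest were FRZB, NANOS1 and TMEM158 (log2 fold changes -3.11, -3.13 and -3.25, distances 0.12, 0.13 and 0.21). RRM1 had PALS1, SUN1 and SRSF12 nearest (-1.35, -1.35 and -1.36, distances 0.03, 0.04 and 0.04), and DCK had CHRM2, NFATC3 and SACM1L (-0.13, -0.12 and -0.16, distances 0.01, 0.02 and 0.02). With 4 libraries in 2 groups, likeness mostly reflects the size of the fold change.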

How the data were processed

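The authors deposited whole-number counts per Ensembl gene for 4 libraries. The submitters' processing notes name HISAT2 2.2.0, StringTie and the hg38 build. For the annotation release, counting rule and strand setting the sources used here give nothing, and counts made by StringTie would be rounded estimates. Symbols came from a name table for 56105 identifiers and from GENCODE release 29 (GRCh38, the same assembly as hg38) for 486 more, while 7661 rows without one held 1.6% to 1.8% of counts. Coordinates and exon lengths are GENCODE's.

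Testing of the deposited counts used R 4.3.3 and edgeR 4.0.16: filterByExpr with a smallest count of 10, TMM, the robust quasi-likelihood test on 2 residual degrees of freedom, and Benjamini-Hochberg adjustment over 19767 genes. That test also draws on variance information shared across genes, with a median of 15.1 prior degrees of freedom. For a gene at that median, its p-value and interval rest more on shared information than on its own replicate spread. Log2 ratios used log2 CPM with a prior count of 2. The pipeline was tested on simulated data. Alternatives are given in the closing section. The correlation of deviations of libraries with the same replicate number was 0.02, so numbers were not read as pairs. Replicates differed by more than sampling noise (chi-square per degree of freedom 7.04 within shIGF2BP3 and 8.34 within shControl). The members and lists were chosen with earlier results of these data known, and so were the motifs. Beside the 9 enzymes, IGF2BP3 and the partners RRM2B and DGUOK, the rule named up to 4 genes of each list by smallest p, members left in small counts, overlapping genes and pseudogenes. Further genes (CCNF, FZR1, NFYB, NME2, DCTD, SLC25A36, GINS3, POLE2 and RPA2) were named after their values were seen. So were AK3, NME6, GLRX, E2F7, E2F8, RBL1, RBL2, TFDP1, ISL1, MYCN, POLG, TWNK, SUCLA2, SLC25A4, LIG3, DCTPP1, DNPH1, HDDC3, DPYD and PPAT. Some genes of the lists are counted but not reported here by name. A count of 0 allows up to 3 counts, 0.0958 to 0.111 CPM, counting error only.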

Additional observations from a re-analysis of the deposited data

How the results depend on the processing

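Direction and side of the threshold were the same as reported for all 144 fold changes of the 9 enzymes, over 16 alternatives: other scaling (DESeq2 size factors, library size alone, upper quartile), no filter or a smallest count of 50, DESeq2, limma voom, edgeR's older fit, the replicate block, summed symbols, added pseudogenes, an adjusted p of 0.01 and each library left out. TK1 ranged from -3.21 to -3.03, RRM2 from -0.85 to -0.72 and SAMHD1 from -0.86 to -0.56 on the log2 scale. TK2 had adjusted p from 0.132 to 0.457 and DCK from 0.109 to 0.733. With the replicate block the number of genes past the test was 10509, against 10178 reported, while 7 enzymes fell and ATR (adjusted p = 0.0671) and SLC25A36 (adjusted p = 0.0746) lost their calls, while TFDP2 and CD14 gained one. Scaling by library size alone moved the median of all tested genes to 0.09. With a prior count of 0.5 the difference in the log2 ratio of DCK to TK1 was 2.98, against 2.97 reported. Of 215 fitted list genes 29 lost a call under at least 1 alternative, 14 gained one and 0 reversed. Over the alternatives the number lower ranged from 27 to 30 for replication fork genes, from 9 to 12 for breakdown genes and from 8 to 11 for mitochondrial DNA genes, and the number higher from 6 to 10 for other deoxynucleotide synthesis genes. What depth limits was not tested for each enzyme; TK2 (SE 0.16) and TK1 (SE 0.13), with the lowest shIGF2BP3 counts of the 9, had the largest errors, against 0.07 for RRM1.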
